A study of Mus musculus with 6 samples.

Results

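Lipoprotein assembly, remodeling and uptake was followed in cultured mouse hepatocytes through 33 genes, picked by gene symbol from the 23282 genes of the deposited count table. They comprised 14 secreted apolipoproteins, 2 assembly genes (Mttp and Tm6sf2), 6 uptake and trafficking receptors, 2 lipid efflux transporters, 7 lipases, lipid transfer proteins and their regulators, and 2 paraoxonases carried on HDL. The liver packs triglyceride and cholesteryl ester around apolipoprotein B in the endoplasmic reticulum and secretes the product as very-low-density lipoprotein (VLDL). In the circulation lipoprotein lipase, hepatic lipase, transfer proteins and exchangeable apolipoproteins remodel these particles, and receptors on hepatocytes take up the remnants. High-density lipoprotein (HDL) is built in parallel, when ABCA1 passes cellular cholesterol and phospholipid to apolipoprotein A-I.

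Hepatocytes were isolated by collagenase perfusion of the livers of C57BL/6N mice (genotype label C57BL6/N), left to attach for 3 hours and then cultured for 24 h with recombinant IL-1β, an inflammatory cytokine, or without treatment. The untreated group (control) and the IL-1β group held 3 samples each, although the series' text speaks of 2 per group. The labels name neither a dose nor the age or sex of the mice, and list no metabolic stressor besides the cytokine. They do not state whether cultures came from separate animals, so p-values measure only the spread between these samples, which may be technical. The readout was 3′ mRNA sequencing of total RNA, and levels are given as CPM, read counts scaled to a common TMM-normalized library total.

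Libraries held 9538741 to 11105408 counts, of which 11.69% to 14.19% fell on the ribosomal Rn45s, and 3 counts corresponded to 0.269 to 0.321 CPM. Such limits cover counting error only. Hepatocyte markers led by Alb were abundant, with a summed level of 22000 to 22790 CPM in control and 18510 to 19690 CPM in IL-1β samples. Of the 8 tested, 7 were lower after IL-1β at an adjusted p below 0.05 in edgeR, against 6.44% of all genes tested. All 8 estimates were negative, with a median log2 fold change of -0.31. The urea cycle enzymes Cps1 (1.79 to 3.22 CPM) and Ass1 (0.288 to 1.22 CPM), also on that list, were low in every sample, with 18 to 33 and 3 to 13 counts. Whether fewer hepatocytes or less of these RNAs per hepatocyte lay behind such a difference cannot be told apart in bulk samples. The part of the marker shift in the results on lipoprotein genes was not tested.

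After IL-1β, more of the lipoprotein genes were lower than higher. The members and the other gene lists were chosen with earlier results of these data known, so shares set against all genes describe these lists only. Of the 32 genes tested, 13 (40.6%) were lower and 3 (9.38%) higher at an adjusted p below 0.05 in edgeR's quasi-likelihood test, against 6.44% lower and 6.97% higher (13.4% in either direction) among all 11657 genes tested. The remaining 16 were not called, and Lipg was too low to be tested. The 3 samples of each group did not overlap for 18 members that were lower and 4 that were higher (56.2% and 12.5%), against 14.2% and 14% of all genes tested (28.2% in either direction). The median log2 fold change was -0.25 over the lipoprotein genes and -0.0018 over all genes. With 3 samples against 3, an exact permutation test of a single gene cannot give a two-sided p below 0.1, and therefore the fit across all genes was used. Scaling by total counts in place of TMM changed the share of higher genes among all calls from 52% to 39.6%, and gave 17 lower and 3 higher lipoprotein genes. All 33 genes together took 1.361% to 1.495% of the counts in control and 1.092% to 1.164% in IL-1β libraries, so the groups did not overlap. Much of this share was Apoe, with 0.653% to 0.712% in control and 0.505% to 0.584% in IL-1β libraries. Without Apoe the summed level was 8342, 6779 and 6567 CPM in control and 5978, 5579 and 5947 CPM after IL-1β, also without overlap. The plot of levels by sample shows each gene in each culture.

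**Figure D1:**
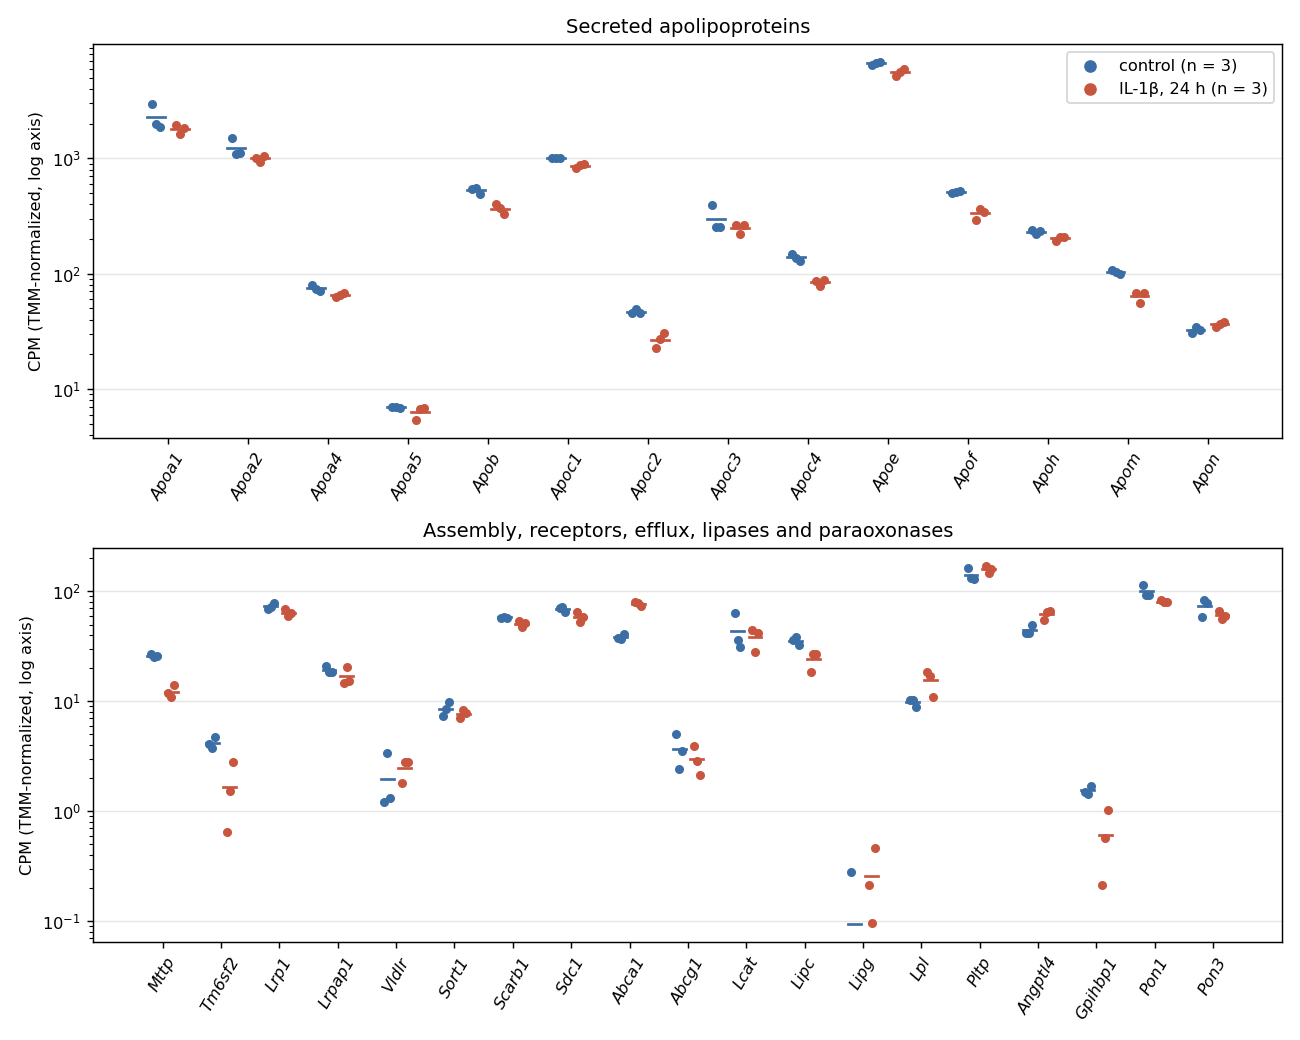
CPM (log axis) of the 33 lipoprotein genes in the 3 control (blue) and 3 IL-1β (red) samples, with a bar at each group mean; samples at 0 counts (Lipg in control replicates 2 and 3) have no point. Genes that lie wholly below control after IL-1β include Mttp, Tm6sf2, Apob, Apoc2, Apoc4, Apof and Apom, and those wholly above include Abca1 and Angptl4.

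Both assembly genes were lower after IL-1β. Mttp encodes the microsomal triglyceride transfer protein, which loads lipid onto apolipoprotein B. Its level was 26.9, 25.4 and 25.7 CPM in the control replicates and 11.9, 10.9 and 14.1 CPM in the IL-1β replicates. The highest IL-1β value thus lay well below the lowest control value. The mean fell by 52.7%, from 26.0 ± 0.769 to 12.3 ± 1.68 CPM (SD, n = 3 each), with a log2 fold change of -1.08 (SE 0.143, adjusted p = 3.95e-06 in edgeR). Tm6sf2, whose product acts in the lipidation of VLDL, was sparse, at 4.13, 3.76 and 4.74 CPM in control and 0.641, 1.54 and 2.79 CPM after IL-1β. In raw counts these were 44, 42 and 47 against 6, 16 and 30, and the highest treated count was still below the lowest control count. Its log2 fold change was -1.32 (SE 0.409, adjusted p = 0.0313 in edgeR). The spread among the IL-1β samples was wide, and the call was lost when control replicate 2 (adjusted p = 0.061), control replicate 3 (0.109), IL-1β replicate 1 (0.172) or IL-1β replicate 2 (0.12) was left out.

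Promoter sequence was available from RefSeq (GRCm38.p6) for 22 of the 33 genes, in 28 windows since some genes have several starts, and the 250 bases before each start were searched on both strands for the letters of 4 motifs. The HNF4-type core CAAAGNNCA was found in 5 of the 28 windows (1 each of Apoa4, Apob, Apoh, Lipc and Lrpap1, with no match in the other Lipc window), and 5.49% of all 32851 promoter windows held it. TGACGT, the core of a cAMP response element-type site, was found in 1 of the 28, that of Mttp, against 6.47% of all windows. The NF-κB-type motif, GGG and TTTCC separated by any 2 bases (1.41% of all windows) and the C/EBP-type TTGCNNCAA (1.74%) were found in none of the 28. A match describes letters in the window and not a bound site, and its relation to expression was not tested. Of the genes with an HNF4-type match, Apob and Lipc were lower after IL-1β, and Apoa4, Apoh and Lrpap1 were not called. The windows of Mttp, Apoa1, Apoa2, Apoc2, Apoc4, Apoe, Apom and Pon1, which were also lower, held no HNF4-type match. Sequences are shown for Mttp and Abca1, the called genes with the largest fall and rise among those with a promoter sequence, and for Apob and Lipc, called genes with an HNF4-type match that were chosen after the matches were seen. Each reads 5′ to 3′ on the gene's own strand, with the match in capitals. For Mttp only 30 bases around the match, which begins 29 bases before the start, are given, because GENCODE M21 annotates the window as exonic, and for Apob the exonic bases next to the start are left out.
Mttp, chr3:138143430-138143459, minus strand: cacttacggcttACGTCAtcggactgcgct
Apob, chr12:7977427-7977647, plus strand: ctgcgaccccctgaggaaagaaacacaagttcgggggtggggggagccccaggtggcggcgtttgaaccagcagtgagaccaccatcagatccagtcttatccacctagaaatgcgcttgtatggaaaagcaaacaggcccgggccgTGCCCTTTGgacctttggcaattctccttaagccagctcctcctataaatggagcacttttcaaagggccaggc
Lipc, chr9:70934809-70935058, minus strand: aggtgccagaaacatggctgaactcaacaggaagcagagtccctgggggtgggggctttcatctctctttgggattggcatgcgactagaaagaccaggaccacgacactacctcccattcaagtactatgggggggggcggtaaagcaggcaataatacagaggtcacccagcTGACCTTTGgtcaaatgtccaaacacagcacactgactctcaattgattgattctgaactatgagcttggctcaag
Abca1, chr4:53159896-53160145, minus strand: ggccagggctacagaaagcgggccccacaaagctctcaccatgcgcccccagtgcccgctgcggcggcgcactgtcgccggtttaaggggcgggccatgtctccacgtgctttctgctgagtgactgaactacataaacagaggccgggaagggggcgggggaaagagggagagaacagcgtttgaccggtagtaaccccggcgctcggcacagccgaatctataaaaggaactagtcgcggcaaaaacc
The capitals begin 103 bases before the start in Apob and 76 bases before it in Lipc, and the Abca1 window held no match to the 4 motifs.

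Among the 14 apolipoproteins, 9 were lower (64.3%) and 0 were higher, against 6.44% and 6.97% of all genes tested. The other 5 were not called, and the median log2 fold change of the 14 was -0.29. Apon, the single apolipoprotein with a positive estimate, was among those not called (log2 fold change 0.16, adjusted p = 0.427 in edgeR). Its groups nevertheless did not overlap, at 30.8, 34.4 and 32.5 CPM in control and 34.7, 36.3 and 37.7 CPM after IL-1β. The summed level of all 14 was 14016, 12791 and 12699 CPM in control and 10368, 10485 and 11200 CPM after IL-1β, with no overlap. Apoe was the largest part of this sum.

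Apob (GRCm38 chromosome 12, 7977677 to 8016839, plus strand) encodes the structural protein of VLDL and LDL, present once per particle. Its level was 543, 556 and 490 CPM in control and 399, 370 and 331 CPM after IL-1β. Every IL-1β sample was below every control. The mean fell by 30.8%, from 530 ± 35.1 to 367 ± 34.5 CPM (SD, n = 3 each; log2 fold change -0.53, SE 0.0719, adjusted p = 5.34e-06 in edgeR).

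Apoe, Apoc1, Apoc4 and Apoc2 lie next to each other on the minus strand of chromosome 7 (19671579 to 19699188), and all 4 were lower after IL-1β. Apoe encodes a ligand by which remnants bind to hepatocytes, and it had the highest CPM of the 33 genes. It stood at 6463, 6751 and 6862 CPM in control and 5154, 5614 and 5993 CPM after IL-1β, without overlap, and fell by 16.5% (log2 fold change -0.26, SE 0.059, adjusted p = 0.00291 in edgeR). Apoc1, an exchangeable apolipoprotein that hinders remnant uptake, had control values of 1006, 1001 and 997 CPM and IL-1β values of 830, 877 and 887 CPM. This was a small decrease with tight controls, by 13.7% (log2 fold change -0.21, SE 0.0581, adjusted p = 0.0141 in edgeR), and the call was lost on leaving out control replicate 2 (adjusted p = 0.0572) or IL-1β replicate 1 (0.109). Apoc4 encodes a minor VLDL apolipoprotein and gave 149, 137 and 129 CPM in control against 87.0, 78.3 and 87.8 CPM after IL-1β. The groups were without overlap, and its mean fell by 38.9% (log2 fold change -0.71, SE 0.0805, adjusted p = 3.07e-07 in edgeR). Apoc2, the obligate cofactor of lipoprotein lipase, gave 45.3, 49.2 and 45.6 CPM against 22.6, 27.3 and 30.4 CPM. Its IL-1β samples were again all below control, and the mean fell by 42.6% (log2 fold change -0.80, SE 0.115, adjusted p = 1.3e-05 in edgeR).

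The estimated decreases of Apoc4 and Apoc2 were larger than those of Apoe and Apoc1, but the difference between genes was not tested. Apoc2 shares its 3′ end with an annotated Apoc4-Apoc2 readthrough transcript, which has a row of its own in the table with 97.9% to 100% of the Apoc2 counts in each sample. Both rows therefore appear to hold nearly the same reads, and the value given for Apoc2 covers the 3′ end that the 2 transcripts share.

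Apoa1, Apoc3, Apoa4 and Apoa5 form a second cluster on chromosome 9 (46228630 to 46271919), in which 1 of the 4 genes was called. Apoa1, the main protein of HDL, was at 2951, 1989 and 1854 CPM in control and 1950, 1626 and 1828 CPM after IL-1β. Control replicate 1 was far above the other controls, and the groups overlapped. The decrease of 20.5% (log2 fold change -0.33, SE 0.108, adjusted p = 0.0412 in edgeR) shrank to a log2 fold change of -0.0943 without control replicate 1 (adjusted p = 0.395). It was also not called without IL-1β replicate 1 (adjusted p = 0.0674), 2 (0.252) or 3 (0.146), by DESeq2 (0.465) or by limma (0.0604). Apoc3, an inhibitor of triglyceride clearance, had the same high control replicate, with 395, 252 and 254 CPM against 264, 220 and 262 CPM, and was not called (log2 fold change -0.27, adjusted p = 0.136 in edgeR). Without control replicate 1 its log2 fold change was -0.0262 (adjusted p = 0.89). It passed the threshold with a replicate block (-0.246, adjusted p = 0.0336) and on leaving out control replicate 2 (-0.382, adjusted p = 0.0442) or 3 (-0.382, adjusted p = 0.0258). Apoa4, a component of triglyceride-rich particles and HDL, was at 79.2, 74.3 and 71.1 CPM against 63.3, 65.9 and 68.1 CPM (log2 fold change -0.19, adjusted p = 0.179), and Apoa5, an activator of triglyceride hydrolysis, was at 6.95, 6.98 and 6.85 CPM against 5.35, 6.72 and 6.88 CPM (-0.13, adjusted p = 0.81). Neither difference passed the test, although the Apoa4 groups did not overlap, and the Apoa5 estimate was -0.0199 without IL-1β replicate 1. In sum over the 4 genes the control values were 3432, 2323 and 2186 CPM and the IL-1β values 2282, 1918 and 2165 CPM, which overlapped. The summed values of the chromosome 7 cluster (7663, 7937 and 8034 against 6093, 6596 and 6999 CPM) did not overlap. Apoa1 made up most of the first sum and Apoe most of the second, so each sum mostly follows that gene.

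Among the other apolipoproteins, Apof and Apom fell without overlap. Apof was at 503, 516 and 520 CPM in control and 291, 365 and 342 CPM after IL-1β, and its mean fell by 35.1% (log2 fold change -0.62, SE 0.0722, adjusted p = 4.69e-07 in edgeR). Apom carries sphingosine-1-phosphate on HDL. It was at 107, 103 and 98.7 CPM against 67.7, 55.6 and 68.0 CPM, and fell by 38.2% (log2 fold change -0.69, SE 0.0889, adjusted p = 2.3e-06 in edgeR). Apoa2, the second protein of HDL, was at 1499, 1099 and 1105 CPM against 1009, 936 and 1049 CPM. The groups did not overlap, and the mean fell by 19.1% (log2 fold change -0.31, SE 0.0859, adjusted p = 0.0163 in edgeR). Control replicate 1 was again high, and the call was lost without it (log2 fold change -0.143, adjusted p = 0.12), without IL-1β replicate 1 (0.071) or 2 (0.134), and by DESeq2 (0.261). Apoh (beta-2-glycoprotein I) was at 238, 223 and 233 CPM against 190, 207 and 209 CPM, groups that did not overlap, and missed the threshold (log2 fold change -0.19, adjusted p = 0.0621 in edgeR). It passed with a replicate block (log2 fold change -0.195, adjusted p = 0.0444).

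**Figure D2:**
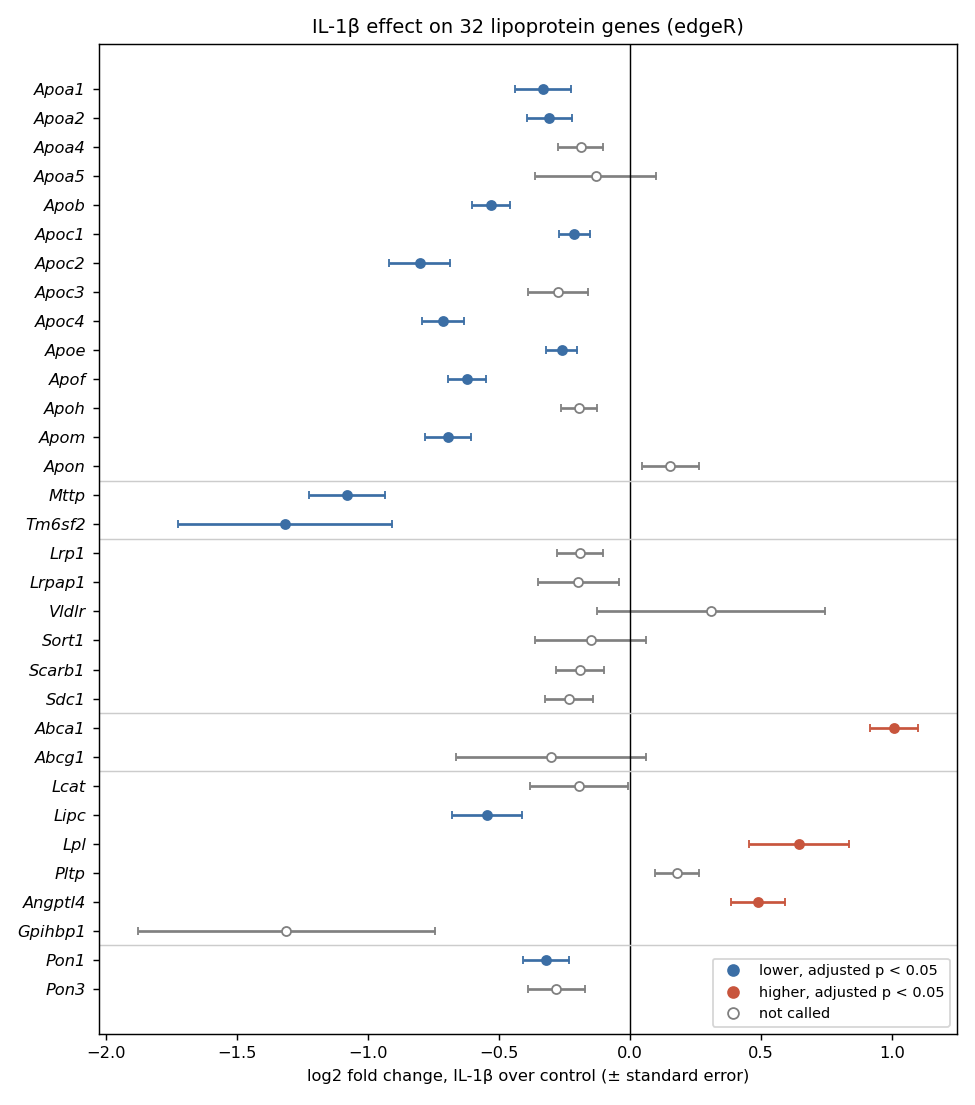
log2 fold change (IL-1β over control, ± standard error from edgeR) of the 32 lipoprotein genes tested, grouped by role and separated by grey lines, with filled points for adjusted p below 0.05. Tm6sf2 (-1.32) and Mttp (-1.08) have the lowest estimates among the called genes and Abca1 (1.01) the highest, while none of the 6 receptors (Lrp1 to Sdc1) is called.

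Abca1, the transporter that starts HDL formation by loading apolipoprotein A-I, rose. It was at 37.9, 36.6 and 40.7 CPM in control and 79.5, 78.0 and 74.3 CPM after IL-1β. All treated samples were far above all controls, and the spread within each group was small. The means of 38.4 ± 2.1 and 77.3 ± 2.71 CPM (SD, n = 3 each) differed 2.01-fold (log2 fold change 1.01, SE 0.0915, adjusted p = 6.57e-09 in edgeR). Abcg1, which exports cholesterol to mature HDL, was at 5.07, 2.42 and 3.53 CPM against 3.96, 2.88 and 2.14 CPM, with overlap and no call (log2 fold change -0.30, adjusted p = 0.699 in edgeR). Its estimate was 0.00704 without control replicate 1.

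Of the lipases, transfer proteins and regulators, Lpl and Angptl4 rose and Lipc fell. Lpl encodes lipoprotein lipase, which hydrolyses the triglyceride of circulating particles and is made mainly outside the adult liver. It was at 10.3, 10.4 and 8.87 CPM in control and 18.4, 17.1 and 10.97 CPM after IL-1β. The third IL-1β sample lay only just above the controls, and the mean rise was 56.3% (log2 fold change 0.64, SE 0.192, adjusted p = 0.0245 in edgeR). This call did not survive leaving out control replicate 3 (adjusted p = 0.0853), IL-1β replicate 1 (0.165) or IL-1β replicate 2 (0.128). Angptl4, a secreted inhibitor of lipoprotein lipase, was at 41.7, 42.2 and 49.4 CPM against 54.7, 65.4 and 66.4 CPM. The groups did not overlap, and the mean rose by 40.2% (log2 fold change 0.49, SE 0.102, adjusted p = 0.00135 in edgeR).

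Lipc, the hepatic lipase that hydrolyses lipids of remnants and HDL, was at 35.8, 38.1 and 32.5 CPM in control and 18.4, 27.2 and 27.2 CPM after IL-1β. Its mean fell by 31.4% without overlap (log2 fold change -0.54, SE 0.135, adjusted p = 0.00642 in edgeR). IL-1β replicate 1 was the lowest, and without it the log2 fold change was -0.377 (adjusted p = 0.0705). Gpihbp1, which anchors lipoprotein lipase on capillary endothelium, had only 16, 16 and 17 raw counts in control and 2, 6 and 11 after IL-1β, and was not called (log2 fold change -1.31, SE 0.566, adjusted p = 0.148 in edgeR). Lcat, the enzyme that esterifies cholesterol on HDL, was at 63.9, 36.1 and 31.1 CPM against 45.01, 27.95 and 41.83 CPM, and Pltp, the phospholipid transfer protein, at 162, 131 and 130 CPM against 171, 148 and 161 CPM. Control replicate 1 was the highest control for both genes, and neither was called (adjusted p = 0.6 and 0.192 in edgeR). Without that sample the log2 fold change was 0.183 for Lcat, still not called, and 0.29 for Pltp (adjusted p = 0.0071). Lipg, endothelial lipase, had 3, 0 and 0 counts in control and 2, 1 and 5 after IL-1β, at or near the limit of detection in both groups.

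Since Lpl and Gpihbp1 are also expressed by other cells, their levels stand beside markers of those cells. Of the muscle and fat markers, Myh7, Ckm, Adipoq and Plin1 had 0 counts in all samples, and the summed level of that list, all of it Fabp4, was 3.13 to 5.54 CPM in control and 2.14 to 5.30 CPM after IL-1β. The 12 Kupffer cell and macrophage markers, led by Cd68 and Ctss, summed to 237.8 to 270.2 CPM in control and 241 to 274.4 CPM after IL-1β. Cd68 alone was at 172 to 204 CPM, so the sum mostly follows that gene. Of the 9 tested 0 were called, and 6 estimates were positive and 3 negative (median log2 fold change 0.31). Of the markers of resident Kupffer cells on that list, Cd5l was at 16.04 to 20.48 CPM and Marco at 2.86 to 7.27 CPM, Clec4f had 0 to 27 counts and Vsig4 0 to 7 counts, and Timd4 had at most 1 count in any sample. The 10 endothelial markers summed to 91.75 to 102.6 CPM and 84.73 to 92.31 CPM. Of the 9 tested, 1 was higher (Lyve1) and 3 were lower (Kdr, Clec4g and Ptprb), against 6.97% and 6.44% of all genes tested. The 10 stellate cell markers, led by Dcn, summed to 21.66 to 25.46 CPM and 22.77 to 28.91 CPM, with 0 of 3 called. The 6 cholangiocyte markers, carried by Spp1 and Sox9, summed to 315.8 to 329.5 CPM and 236.5 to 239.7 CPM, with Spp1 lower among the 2 tested and Krt7, Epcam and Cftr at 2 counts or fewer. Of the lymphocyte and neutrophil markers, Cd3e, Cd79a, Ms4a1 and S100a9 had 0 counts in all samples, and S100a8 had 0 in control and 2.03, 3.46 and 4.74 CPM after IL-1β. The part of these cells in the values of Lpl and Gpihbp1 was not tested.

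**Figure D3:**
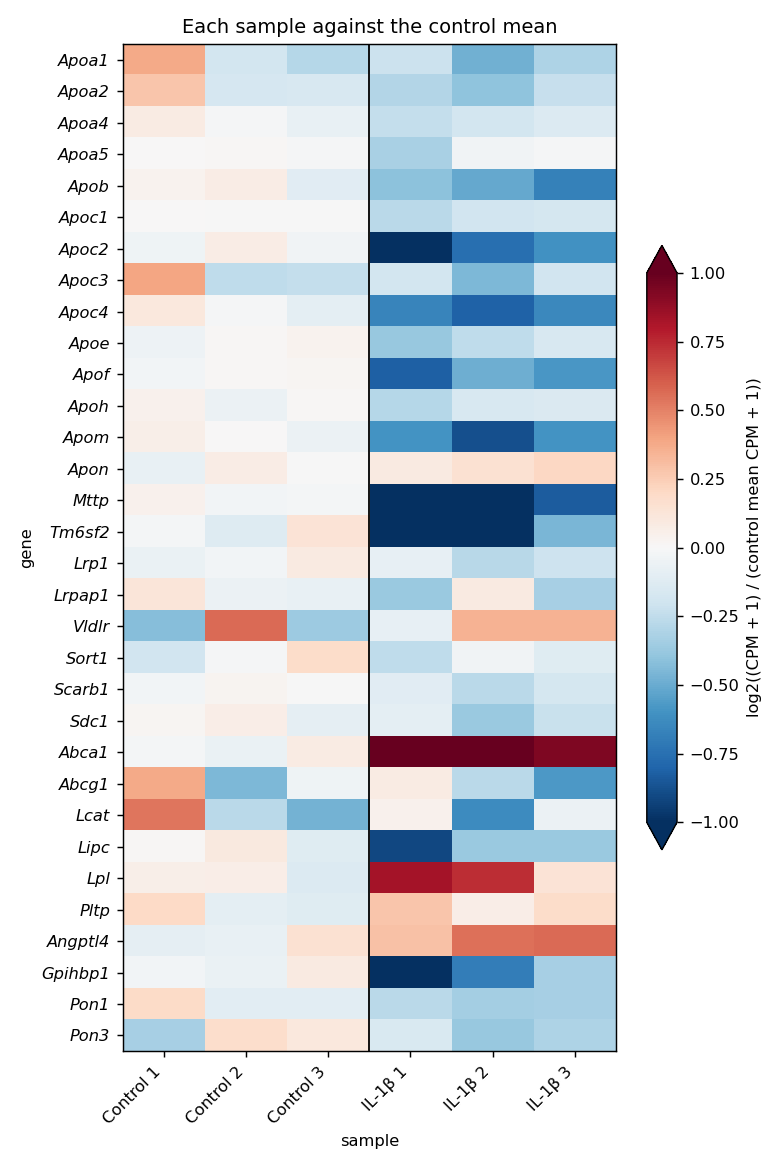
Each of the 32 tested lipoprotein genes (rows) in each sample (columns), coloured by log2 of (CPM + 1) over (control mean CPM + 1) and capped at 1 and -1. Control replicate 1 is redder than the other controls for genes that include Apoa1, Apoa2, Apoc3, Abcg1, Lcat, Pltp and Pon1. Abca1 is red in all 3 IL-1β samples.

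None of the 6 receptor and trafficking genes passed the test. Lrp1, the large remnant receptor, was at 69.8, 71.5 and 77.9 CPM in control and 69.0, 60.2 and 63.0 CPM after IL-1β. Scarb1, the receptor for HDL cholesteryl ester, was at 56.9, 59.1 and 57.7 CPM against 53.5, 47.8 and 51.2 CPM. Sdc1, a heparan sulfate proteoglycan that binds remnants, was at 70.1, 72.7 and 64.8 CPM against 64.7, 53.2 and 59.0 CPM. In these 3 genes the IL-1β samples lay below the controls without overlap, by log2 fold changes of -0.19, -0.19 and -0.23, with adjusted p = 0.19, 0.212 and 0.113 in edgeR. The LRP1 chaperone Lrpap1 (log2 fold change -0.20, adjusted p = 0.5), the sorting receptor Sort1 (-0.15, adjusted p = 0.751) and the VLDL receptor Vldlr (0.31, adjusted p = 0.749), the last at 1.22 to 3.40 CPM in all samples, overlapped between groups. Leaving out 1 sample moved these estimates widely without a call, from -0.367 (without IL-1β replicate 2) to -0.106 (without IL-1β replicate 1) for Lrpap1, from -0.244 (without control replicate 1) to -0.0422 (without control replicate 3) for Sort1 and from 0.0554 (without control replicate 1) to 0.965 (without control replicate 2) for Vldlr.

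Of the HDL-borne paraoxonases, Pon1 fell by 19.9%, from 116, 93.6 and 93.7 CPM in control to 83.5, 79.3 and 79.9 CPM after IL-1β (log2 fold change -0.32, SE 0.0883, adjusted p = 0.0145 in edgeR). The groups did not overlap, but control replicate 1 was high, and without it the log2 fold change was -0.212 (adjusted p = 0.0975). Leaving out IL-1β replicate 2 or 3 gave an adjusted p of 0.0773 or 0.073. Pon3 was at 58.2, 83.1 and 78.9 CPM against 66.0, 56.3 and 59.1 CPM and was not called (log2 fold change -0.28, adjusted p = 0.101 in edgeR). Here control replicate 1 was the low one, and without it the log2 fold change was -0.424 (adjusted p = 0.000867).

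**Figure D4:**
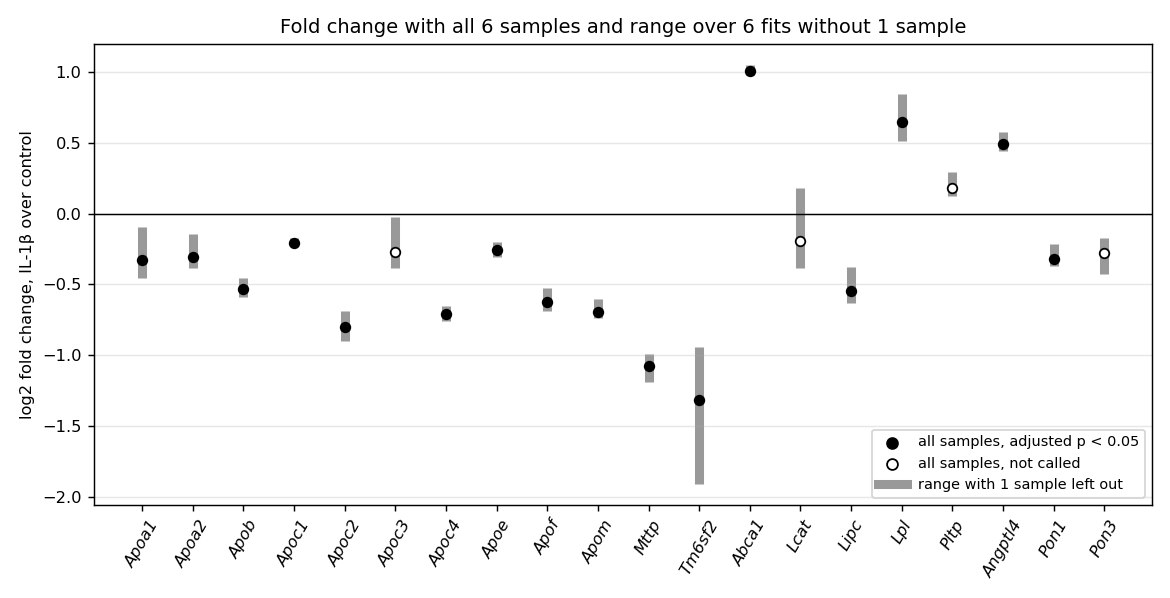
log2 fold change (IL-1β over control) with all 6 samples (points, filled where adjusted p was below 0.05) and its range over the 6 fits that each left out 1 sample (grey bars), for the 16 called genes and for Apoc3, Lcat, Pltp and Pon3. Abca1 and Apoc4 vary little, Tm6sf2 has the longest bar, and the bar of Lcat (-0.388 to 0.183) crosses 0.

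Other genes of the pathway, from a list of 48 with 44 tested, were also read: 6 were higher (13.6%), 5 lower (11.4%) and 33 not called. Among all genes tested, 6.97% were higher and 6.44% lower. The median log2 fold change of the 44 was -0.05. The decreases included Pla2g12b, which like Tm6sf2 acts in VLDL lipidation (21.7 ± 1.02 to 10.8 ± 1.76 CPM, log2 fold change -1.02, adjusted p = 3.39e-05), and Lsr, the lipolysis-stimulated lipoprotein receptor (478 ± 12.4 to 291 ± 9.06 CPM, -0.72, adjusted p = 3.31e-09; SD, n = 3 each, edgeR). Clu, or apolipoprotein J, fell from 7025 ± 258 to 4850 ± 169 CPM (log2 fold change -0.53, adjusted p = 6.2e-08 in edgeR). Surf4, a cargo receptor for lipoprotein export from the endoplasmic reticulum, rose from 222 ± 11.7 to 297 ± 16.5 CPM (log2 fold change 0.42, adjusted p = 7.39e-05 in edgeR). Ext1, a heparan sulfate polymerase, rose from 117 ± 19.3 to 169 ± 8.41 CPM (log2 fold change 0.53, adjusted p = 0.000156 in edgeR).

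From a list of 31 transcription factors and nuclear receptors chosen as acting at lipoprotein genes, 29 were tested. Of these, 6 were lower (20.7%), 3 higher (10.3%) and 20 not called, against 6.44% lower and 6.97% higher among all genes tested. The median log2 fold change of the 29 was -0.12. Creb3l3, a membrane-bound factor that drives genes of triglyceride metabolism, fell from 36.6 ± 7.96 to 3.94 ± 1.28 CPM (log2 fold change -3.23, adjusted p = 6.11e-12 in edgeR). Hnf4a, which acts on many apolipoprotein genes and on Mttp, fell from 87.7 ± 3.31 to 42.7 ± 1.06 CPM (log2 fold change -1.04, adjusted p = 1.62e-09 in edgeR). Foxa3 (-0.99, adjusted p = 7.08e-08), Prox1 (-0.92, adjusted p = 0.000402) and Mlxipl, the carbohydrate-responsive factor ChREBP (-0.56, adjusted p = 1.61e-05), were lower on the log2 scale in the same fit. Cebpb, a factor of the acute-phase response, rose from 80.7 ± 17.2 to 135 ± 13 CPM (adjusted p = 1.37e-05 in edgeR). Neither Nr1h3, the LXRα gene whose product acts on Abca1 (log2 fold change -0.30, adjusted p = 0.126), nor Ppara, whose product acts on Angptl4 (0.20, adjusted p = 0.417), passed the test in edgeR. The Nr1h3 groups nevertheless did not overlap, at 27.8 to 34.8 CPM in control and 23.2 to 26.6 CPM after IL-1β, while those of Ppara did.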

How the data were processed

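Total RNA from 6 cultures was sequenced with the QuantSeq 3′ mRNA-Seq kit as single-end reads of 75 nt, and each read marks the 3′ end of an mRNA. Per the labels, the authors aligned reads with Bowtie2 to mm10 (GRCm38) and normalized with edgeR. The deposited raw read counts per gene carry no normalization and are the only values used here. Their counting tool and its treatment of strand and of reads shared by genes are not given in the sources used here. The authors' normalized log2 values, group averages, fold changes and p-values stand in the same table and were not used.

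From these counts, differences were fitted with edgeR 4.0.16 under R 4.3.3 (filterByExpr, TMM, quasi-likelihood test, Benjamini-Hochberg adjustment over 11657 genes, no replicate block), and a gene was called at an adjusted p below 0.05. CPM are counts scaled to a common TMM-normalized library total. A standard error is the log2 fold change over the square root of F. Alternatives were DESeq2 1.42.0, limma 3.58.1 on log2(CPM + 1), scaling by RLE, by total counts or by the upper quartile, the unfiltered table, a minimum of 10 counts required of all samples, the replicate number as a block, and each sample left out. The members and the lists were chosen with earlier results of these data known. All 33 members are accounted for. Of the other pathway genes and factors, the text names at most 6 of each list with the smallest adjusted p, plus Hnf4a, Ppara and Nr1h3, and some genes of the pathway list are not reported here. From each marker list it names the members at 0 counts and the most abundant, and other markers named were chosen after their values were seen. Promoter windows came from RefSeq (GRCm38.p6) and overlaps from GENCODE M21, read with Python 3.11.15. Same-numbered control and IL-1β samples did not deviate together (r of 0.075, 0.0275 and -0.00497), so the numbers were not treated as pairs.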

Additional observations from a re-analysis of the deposited data

How the results depend on the processing

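Abca1, Angptl4, Apob, Apoc2, Apoc4, Apoe, Apof, Apom and Mttp, which are 9 of the 16 lipoprotein genes called, kept their direction and their call in all 14 alternatives. Over the 6 fits that each left out 1 sample, the count of genes lower after IL-1β ranged from 8 to 13, the lowest without IL-1β replicate 1, and the count of genes higher ranged from 2 to 4. The smaller number of samples is part of that construction, and the cause was not tested further. Leaving out each sample gave log2 fold changes of -0.388 to 0.183 for Lcat and of -0.54 to 0.00704 for Abcg1, each positive without control replicate 1 alone, and neither gene was called in any of these fits. DESeq2 gave 11 lower genes, without Apoa1 and Apoa2, and limma gave 12, without Apoa1. The minimum of 10 counts in every sample gave 12, because Tm6sf2 was then not tested. Scaling by total counts gave 17 lower genes, adding Apoc3, Apoh, Pon3 and Sdc1, upper-quartile scaling gave 14, and the absence of a filter gave 15. With the replicate number as a block, 15 lipoprotein genes were lower and 3 higher, with Apoc3 (log2 fold change -0.246, adjusted p = 0.0336 in edgeR) and Apoh (-0.195, adjusted p = 0.0444) added. The block moved no count of the 3 lists by more than 1.5 times and removed no call of a lipoprotein gene. Genes near 3 counts in a library, here Lipg and Gpihbp1, are limited by depth.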
